A study of Mus musculus with 4 samples.

Results

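Mir143 and Mir145a are the smooth muscle miRNA genes examined here, in stroma sorted from around the mouse wolffian duct before smooth muscle has formed in the ureter. They were chosen by name as the rows for Mir143, Mir145a and Mir145b. Of these 3 genes, Mir143 (gene ID 387161) and Mir145a (gene ID 387163) were used, 2 of 2976 rows in the table and of 643 rows that are miRNA genes, and Mir145b was not analysed here. The samples were 4 small RNA libraries in 1 group, described as wild type, from CD1 embryos at E10.5 that carried Tbx18-Cre and CAG-tdTomato. In such embryos Cre is made under the control of Tbx18 and the reporter stays on in every descendant of a cell that once made it, so the sorted population is a lineage and not a snapshot of cells making Tbx18. No source says whether the libraries came from separate embryos, so each spread below is that between these libraries and may be technical.

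miR-143 and miR-145 are processed from a shared primary transcript, whose lncRNA host is called Carmn. In smooth muscle the locus is driven by serum response factor with myocardin, and its products favour the contractile state by repressing factors such as Klf4 and Klf5. Both are also made in other mesenchymal cells, including fibroblasts and pericytes, so neither identifies smooth muscle by itself. Tbx18-lineage mesenchyme later gives rise to the smooth muscle of the ureter.

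The pair was set against miRNAs that lead other lists, and well-known mature arms of 4 of those genes are shown to identify them, from RefSeq (GRCm38.p6) with bases 2 to 8, the seed, in capitals. The rows are hairpin genes, so the data do not say which arm the reads came from. No seed is shared between these 5 arms.
miR-199a-5p: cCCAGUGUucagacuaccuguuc
miR-199a-3p: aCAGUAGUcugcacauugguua
miR-26a-5p: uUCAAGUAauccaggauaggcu
miR-206-3p: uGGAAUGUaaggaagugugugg
miR-126a-3p: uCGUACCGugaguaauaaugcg
Here each arm labels the list that its gene led, and is not taken to mark a cell type by itself. The lists were mesenchymal for miR-199a, proliferative smooth muscle for miR-26a, striated muscle for miR-206 and endothelial for miR-126a. Other genes of the proliferative and striated lists were far lower. After Mir26a-2 at a mean of 1575 TPM came Mir222 at 25.02 TPM, and after Mir206 at 191 TPM came Mir1a-1 at 10.4 TPM.

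On GRCm38, Mir145a lies on chromosome 18 at 61647825 to 61647894 and Mir143 at 61649196 to 61649258, both on the minus strand and 1301 nt apart. The hairpins are 63 nt for Mir143 and 70 nt for Mir145a. RefSeq places both inside the span of Carmn (61645878 to 61665538), whereas in GENCODE vM21 Carmn ends before them (61649625 to 61665537). Mir145b lies elsewhere on the chromosome, at 69022199 to 69022273.

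Mir143 was an abundant miRNA in every library and Mir145a a moderate one. Values are TPM, reads per unit of gene length, scaled to the same sum in each library. Mir143 was at 535, 1081, 560 and 196 TPM in libraries 1 to 4, a mean of 593 ± 365 TPM (SD, n = 4). Mir145a was at 31.8, 36.6, 29.1 and 7.16 TPM in the same libraries, a mean of 26.2 ± 13.1 TPM (SD, n = 4). Library 2 was the highest and library 4 the lowest for both genes, and the values of Mir143 and Mir145a did not overlap. These are levels of bulk sorted cells, in which a smaller number of cells making a miRNA and a lower level per cell cannot be told apart.

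The reads behind these levels were recovered from the TPM values. All miRNA genes together had 883201, 1087240, 978210 and 146255 reads in libraries 1 to 4, so library 4 was by far the shallowest. Mir143 had 8624, 14004, 6762 and 1333 reads. Mir145a had 569, 527, 391 and 54 reads. The 54 reads in library 4 gave 7.16 TPM with an exact 95% Poisson interval of 5.38 to 9.34 TPM, while the 1333 reads of Mir143 there gave 185.9 to 207 TPM. Such intervals cover counting error only. In both genes library 4 therefore lay below the other libraries by more than counting error.

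The libraries were further apart in TPM than in shares of the miRNA pool. The rows of the table summed to 4.94%, 7.22%, 7.11% and 2.33% of the sum to which TPM is set, so library 4 gave less of its scale to these genes. As a share of the summed TPM of miRNA genes, Mir143 took 1.26%, 1.65%, 0.907% and 1.20% in libraries 1 to 4, a mean of 1.25% ± 0.306 (SD, n = 4). Mir145a took 0.0748%, 0.0559%, 0.0472% and 0.0436%, a mean of 0.0554% ± 0.0139 (SD, n = 4). The highest library exceeded the lowest 5.51-fold in TPM and 1.82-fold in share for Mir143, and 5.12-fold and 1.71-fold for Mir145a. The order of the libraries also differed by scale. By share, Mir143 was highest in library 2 and lowest in library 3, and Mir145a was highest in library 1 and lowest in library 4.

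**Figure D1:**
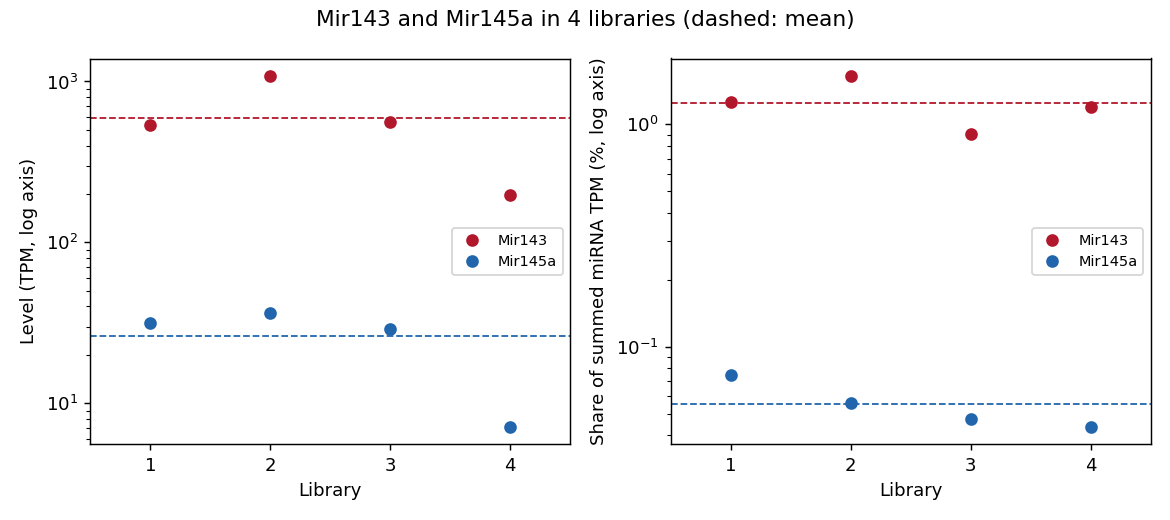
Mir143 (red) and Mir145a (blue) in each of the 4 libraries, as TPM on the left and as percent of the summed miRNA TPM on the right, both on log axes, with points for libraries and dashed lines for means. Mir143 runs from 196 to 1081 TPM and from 0.907% to 1.65%, above Mir145a in every library on both scales.

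Ranks within a library do not depend on its scale. Among the 643 miRNA genes Mir143 was 21st, 14th, 24th and 21st in libraries 1 to 4 and 20th by mean TPM. Mir145a was 112th, 114th, 123rd and 137th, and 122nd by mean TPM. The genes with any read numbered 390, 387, 404 and 345 in libraries 1 to 4. A further limit is that 203 of the 643 genes were listed at 0 in all 4 libraries, among them the broadly used Mir21a, Mir22, Mir24-1, Mir24-2, Mir101a and Mir127, named after their values were seen. A listed 0 is therefore not read as absence, and every rank, share and list sum here leaves out any reads of such genes. Mir143 was thus close to the top of each library, and Mir145a was in the upper part of the detected genes. By reads not divided by hairpin length, the mean ranks were 25 for Mir143 and 130 for Mir145a.

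**Figure D2:**
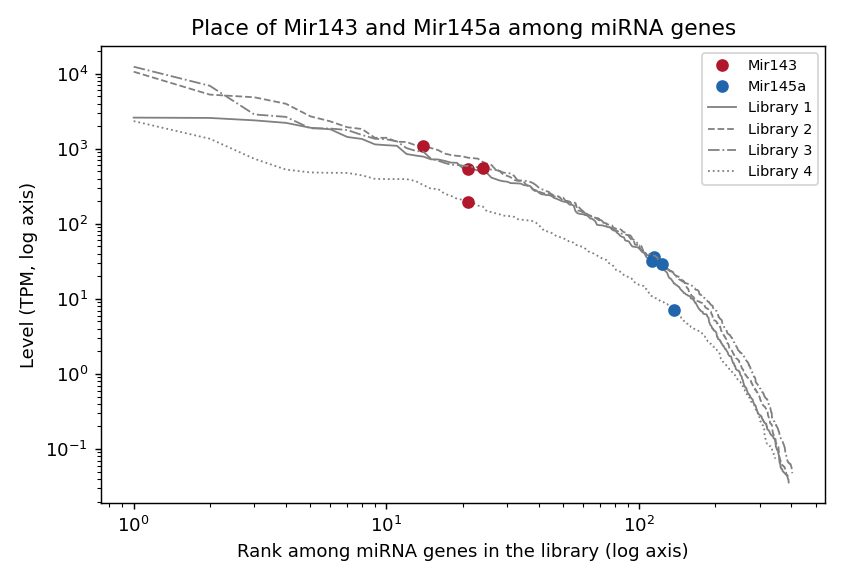
Level in TPM (log axis) against rank among miRNA genes (log axis) in each library, drawn as grey lines, with Mir143 in red and Mir145a in blue. Mir143 sits between ranks 14 and 24, and Mir145a between ranks 112 and 137.

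The members of the pair were far from equal in level. Mir143 exceeded Mir145a 16.8-fold in library 1, 29.5-fold in library 2, 19.2-fold in library 3 and 27.4-fold in library 4, in TPM. On the log2(TPM + 1) scale the mean difference was 4.42 ± 0.37 (SD, n = 4), with Mir143 higher in 4 of 4 libraries. With the signs of the 4 differences flipped in every combination, an exact permutation test (two-sided) gave p = 0.13, the smallest that 4 libraries allow. In limma, fitted across all miRNA genes against Mir143, the same difference had an SE of 0.33 and a Benjamini-Hochberg adjusted p of 1.34e-06. Fitted against Mir145a, it had an SE of 0.30 and a limma adjusted p of 2.58e-05. These p values borrow the spread of all genes, and their size is not evidence that 4 libraries could give by themselves.

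The ratio within the pair rests on reads, and whether library preparation recovered both miRNAs equally was not tested. The same limit holds for every comparison between genes here. The ratio needs no scaling between libraries, since both genes are read in the same library. Its exact 95% intervals, from the binomial split of the pair's reads, were 15.5 to 18.4 in library 1, 27.1 to 32.3 in library 2, 17.4 to 21.3 in library 3 and 20.9 to 36.7 in library 4. Mir145a made up 6.19%, 3.63%, 5.47% and 3.89% of the pair's reads in libraries 1 to 4. Fisher's exact test (two-sided) of these reads between each of the 6 pairs of libraries, chosen after the intervals were seen and adjusted over the 6, compares libraries by counting error only. Libraries 1 and 3 each differed from libraries 2 and 4, with adjusted p of at most 0.0218, the value for libraries 3 and 4. Libraries 1 and 3 were not separated by this test (adjusted p = 0.0622, Fisher's exact), nor were libraries 2 and 4 (adjusted p = 0.60, Fisher's exact). From the lowest to the highest library the ratio varied 1.75-fold, less than either gene did in TPM, but about as much as Mir143 (1.82-fold) and Mir145a (1.71-fold) did as shares of miRNA TPM.

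**Figure D3:**
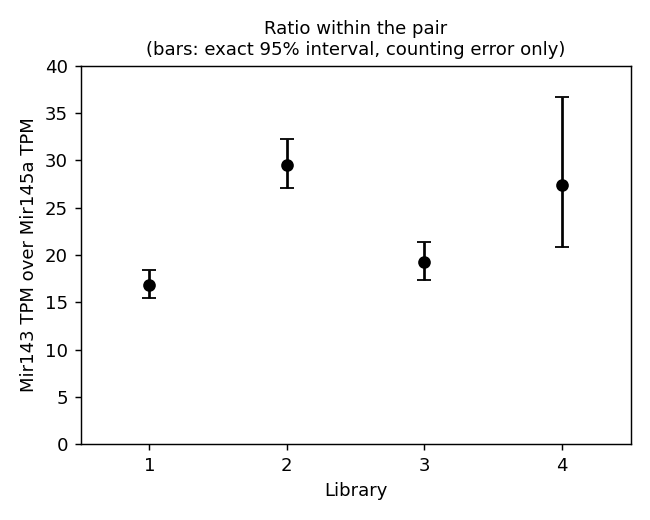
Mir143 TPM over Mir145a TPM in each library (points), on a linear axis from 0, with bars for the exact 95% interval from the split of reads, which covers counting error only. The ratio is 16.8 and 19.2 in libraries 1 and 3 and 29.5 and 27.4 in libraries 2 and 4.

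Other closely linked miRNA genes give a scale for this imbalance. There were 81 pairs of adjacent miRNA genes on the same strand within 10 kb, both with a mean of at least 1 TPM. Many of these pairs lie in the Dlk1-Dio3 locus on chromosome 12, and some share a gene, so the pairs are not independent. Their mean log2 ratios, taken as the higher gene over the lower, had a median of 1.78 and ran from 0.04 to 7.83. Mir143 over Mir145a stood 14th of 81, with 16.0% of pairs more unequal, most of them from that locus. Next above it were Mir485 over Mir668 at 4.57, from the imprinted Dlk1-Dio3 locus, and next below it Mir183 over Mir96 at 4.29, from a cluster known in sensory organs. Its SD between libraries, 0.37, was the 29th lowest of 81, against a median of 0.49. The skeletal muscle pair Mir206 over Mir133b was more unequal, at 6.34 ± 1.21 (SD, n = 4), and it was named after its values were seen. Among pairs whose genes both averaged at least 10 TPM, 4.65% of 43 pairs were more unequal than Mir143 over Mir145a. That filter also acts on the lower gene, so it drops unequal pairs such as Mir206 over Mir133b, and the smaller percent does not make the pair more unusual. An unequal pair was thus common, and the excess of Mir143 lay towards the unequal end of the range.

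**Figure D4:**
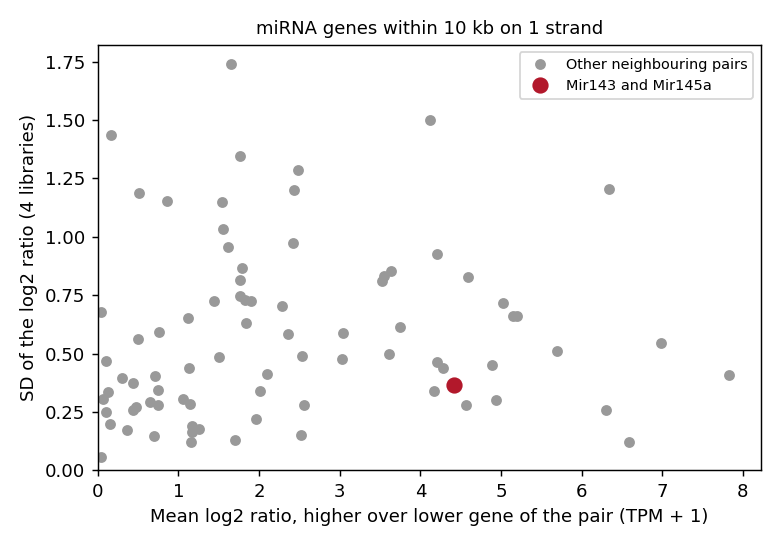
Each point is a pair of adjacent miRNA genes on the same strand within 10 kb, with the mean log2 ratio of the higher over the lower gene (TPM + 1) on the x axis and the SD of that ratio over the 4 libraries on the y axis. Mir143 and Mir145a, in red, are at 4.42 and 0.37, to the right of the median ratio of 1.78 and below the median SD of 0.49.

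The host transcript was barely seen in these small RNA libraries. Carmn was listed at 0.00576 TPM in library 1, at 0.00684 TPM in library 4 and at 0 in libraries 2 and 3. Bvht, the lncRNA on the opposite strand beside the locus that is known from heart development, was listed at 0 in all 4 libraries. The libraries select short RNA, so these values do not measure the long transcripts.

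Mir143 was then compared with each of the 272 other miRNA genes with a mean of at least 1 TPM, on log2(TPM + 1) within each library. At a limma adjusted p under 0.05, Mir143 was higher than 242 of them (89%) and lower than 8 (2.94%). The 8 genes above it were Mir10b, Mir10a, Mir99a, Mir99b, Mir26a-2, Mir541, Mir148a and Mir92-2. Mir10b, encoded in a Hox cluster, stood above by the most, with Mir143 minus Mir10b at -3.40 (SE 0.41, adjusted p = 3.77e-05). The call for Mir92-2 was marginal (-0.88, adjusted p = 0.0474), and it was lost without library 1 (adjusted p = 0.0900), 3 (0.174) or 4 (0.102). The remaining 22 genes, from Mir125a at a mean of 1148 TPM to Mir183 at 299.5 TPM, could not be placed above or below Mir143 beyond the spread between libraries.

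The nearest genes in level to Mir143 were among those 22. Next above it by mean TPM were Mir218-1 at 608, Mir615 at 652 and Mir125b-1 at 663 TPM, and next below it Mir543 at 549, Mir379 at 535 and Mir370 at 535 TPM. Mir143 was higher than each of these 6 genes in 2 or 3 of the 4 libraries, and limma's adjusted p ran from 0.44 for Mir615 to 0.98 for Mir543. Mir218-1 is an intronic miRNA of Slit2, Mir615 belongs to a Hox cluster, and Mir543, Mir379 and Mir370 belong to the Dlk1-Dio3 locus.

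Mir145a divided the same genes more evenly. It was higher than 121 of 272 genes (44.5%) and lower than 95 (34.9%), and 56 could not be separated from it. Those 56 ran from Mir363 at a mean of 86.2 TPM to Mir302b, from the pluripotency cluster, at 10.4 TPM. Next above it were Mir210, a hypoxia miRNA, at 26.5 TPM, Mir532 at 26.6 and the epithelial Mir200b at 27.1 TPM. Next below it were Mir222 at 25.02, Mir421 at 24.7 and Mir493 at 24.6 TPM. Mir145a minus these 6 genes lay between -0.17 and 0.11 on the log2 scale, with adjusted p from 0.69 to 0.99, so their order by mean is not an order beyond the spread.

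Of the mesenchymal list, 2 genes were tested. Mir143 was higher than 1 of them, Mir199b, against 89% of all genes tested, and was not separated from Mir199a-1. Mir145a was lower than both, against 34.9% of all genes tested. Mir199a-1, the higher of the 2, was at 1093, 1114, 736 and 112 TPM in libraries 1 to 4. Mir143 minus Mir199a-1 was -0.17 (SE 0.39, adjusted p = 0.69, limma), with Mir143 higher only in library 4. Mir199b was at 234, 141, 119 and 15.3 TPM, and Mir143 exceeded it by 2.48 (SE 0.44, adjusted p = 0.000505, limma) in 4 of 4 libraries. Mir145a minus Mir199a-1 was -4.59 and Mir145a minus Mir199b was -1.94, both called. The remaining rows of this list, Mir214 and Mir199a-2, were listed at 0 in all libraries.

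The muscle miRNAs that mark striated cells were uneven. Mir206, of skeletal muscle, was at 327, 121, 101 and 216 TPM in libraries 1 to 4. Mir143 minus Mir206 was 1.55 (SE 0.55, adjusted p = 0.0240, limma), higher in 3 of 4 libraries, with library 4 the exception. That call was lost without library 2 (1.01, adjusted p = 0.0971) or library 3 (1.24, adjusted p = 0.13), and with reads not divided by hairpin length (1.34, adjusted p = 0.0768). Mir1a-1, shared by heart and skeletal muscle, was at 13.1, 7.58, 13.2 and 7.59 TPM, and Mir133a-2 at 0.827, 0.702, 3.81 and 0.446 TPM. Mir143 was higher than all 5 tested members of the striated list, against 89% of all genes tested. Mir145a was higher than 4 of the 5, against 44.5%, and lower than 1, Mir206, against 34.9%. The call of Mir145a above Mir1a-1 (1.09, adjusted p = 0.0376, limma) was lost without library 1, 2 or 3 (adjusted p from 0.078 to 0.222).

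Several miRNAs are known to act on the balance between proliferating and contractile smooth muscle. Mir26a-2, whose product promotes proliferation of vascular smooth muscle, was at 1349, 2701, 1773 and 476 TPM in libraries 1 to 4. Mir143 minus Mir26a-2 was -1.40 (SE 0.32, adjusted p = 0.00254, limma), lower in 4 of 4 libraries. Mir222 was at 24.4, 37.2, 22.9 and 15.6 TPM and Mir221 at 14.9, 14.2, 15.6 and 3.32 TPM, both targeting the cell cycle inhibitor p27. Mir143 exceeded Mir222 by 4.34 and Mir221 by 5.45, in 4 of 4 libraries and called by limma. Mir145a minus Mir222 was -0.09 (adjusted p = 0.83) and Mir145a minus Mir221 was 1.03 (adjusted p = 0.0120, limma). The call against Mir221 was lost without library 2 (adjusted p = 0.123) and with reads not divided by hairpin length (adjusted p = 0.0640). Of the 4 tested genes of this list, Mir143 was higher than 3, against 89% of all genes tested, and lower than Mir26a-2, against 2.94%. Mir145a was higher than 2 of the 4, against 44.5%, and lower than Mir26a-2, against 34.9%. Mir21a, Mir24-1 and Mir24-2 of the same list were listed at 0 in all libraries. Mir26a-1, also of this list, averaged 0.495 TPM, and how reads that fit both Mir26a copies were counted is unknown.

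A further list held other miRNAs studied in smooth muscle, 12 of which were tested. Mir143 was higher than 10 of the 12, against 89% of all genes tested, and not separated from Mir100 (722, 824, 1357 and 104 TPM) or Mir125b-1 (1432, 759, 381 and 79.5 TPM). Its median difference over the 12 was 4.997, against 5.10 over all 272 genes. Mir145a was higher than 5 of the 12, against 44.5% of all genes tested, and lower than 5, against 34.9%. Its median difference was 0.57 over the 12, against 0.67 over all genes.

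Lists for other cells that a sort could carry were measured beside the pair. The summed TPM of Mir143 and Mir145a was 567, 1118, 589 and 203 in libraries 1 to 4, and log2 ratios are of this sum over each list's sum, with 1 TPM added to both. Mir126a, the endothelial row, was at 280, 436, 528 and 251 TPM, and the ratio was 1.02, 1.36, 0.16 and -0.30, a mean of 0.56 ± 0.76 (SD, n = 4) that was 0.29 without library 2 and 0.84 without library 4. The epithelial list, led by Mir205 and Mir200b, summed to 90.9, 84.9, 187.6 and 54.6 TPM, and the ratio was 2.46 ± 0.93, higher in 4 of 4 libraries. All 9 epithelial genes had reads, and 7 were at 1 TPM or more in every library. The blood list summed to 9.55, 4.55, 21.1 and 4.51 TPM, with Mir223 and Mir486 listed at 0, and the ratio was 5.84 ± 1.28, higher in 4 of 4.

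The neural and liver lists varied most against the pair. The neural list summed to 351, 37.6, 3082 and 98.1 TPM, and Mir9-3 made up 830 of its mean of 892 TPM. Mir124a-1, a copy of the neuronal miR-124, was listed at 0. The copies Mir124a-3 and Mir124a-2, named after their values were seen, reached 8.67 and 1.44 TPM in library 3. The ratio of the pair to the neural list was 0.69, 4.86, -2.39 and 1.04, so the pair was lower in library 3 and higher in the others. Its mean of 1.05 ± 2.97 (SD, n = 4) turned to -0.22 without library 2 and was 2.20 without library 3. Mir122, of liver, was at 91.8, 23.5, 51.7 and 143 TPM, and the ratio was 3.03 ± 2.08, from 0.50 in library 4 to 5.51 in library 2.

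Like the neural sum, the remaining 3 list sums were each mostly 1 gene, so their ratios largely restate the comparison with that gene. The pair was below the proliferative smooth muscle sum in 4 of 4 libraries, at -1.38 ± 0.16 (SD, n = 4), and Mir26a-2 made up 1575 of that sum's mean of 1623 TPM. The other genes of this list averaged 25.02 TPM (Mir222) or less, far below the pair. The pair was below the mesenchymal sum, of which Mir199a-1 made up 764 of 891 TPM, in 3 of 4 libraries, at -0.32 ± 0.79 (SD, n = 4). That mean was -0.0121 without library 1 and -0.64 without library 4. The pair was above the striated muscle sum, of which Mir206 made up 191 of 206 TPM, in 3 of 4 libraries, at 1.48 ± 1.46 (SD, n = 4), and at 0.94 without library 2. With 4 libraries an exact test of such a ratio cannot give a p below 0.13. Library 2, in which Mir143 was highest by share, had the lowest neural and liver sums in TPM. Library 3, in which the share of Mir143 was lowest, had the highest neural, blood, epithelial and endothelial sums in TPM. It also had the lowest striated muscle sum. The blood, epithelial, endothelial, mesenchymal and proliferative smooth muscle sums were lowest in library 4, and the proliferative sum was highest in library 2. The list sums are in TPM and not in shares, and the order of the libraries can differ between these scales. The part of those cells in the level of Mir143 was not tested.

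**Figure D5:**
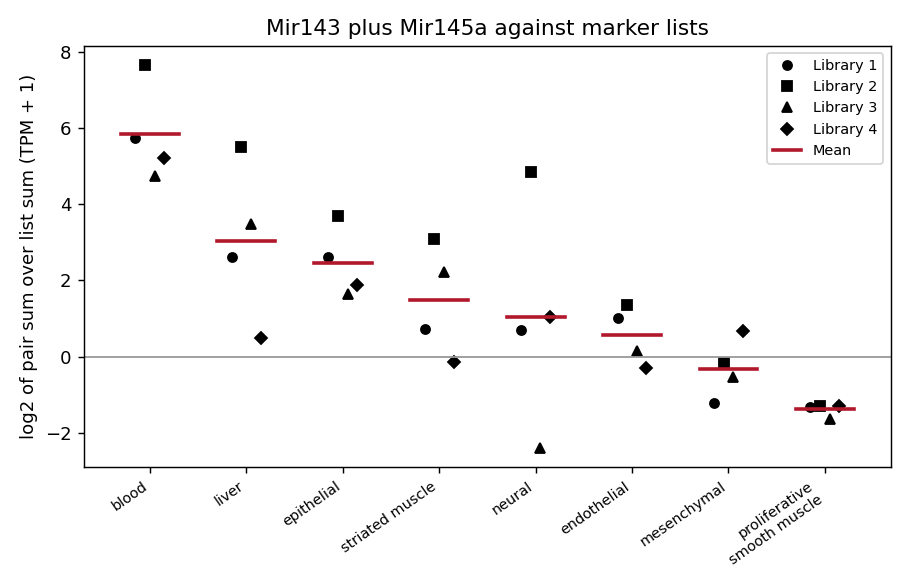
Log2 ratio of the summed TPM of Mir143 and Mir145a over the summed TPM of each list (1 TPM added to both), with symbols for the 4 libraries, a red bar for the mean and a grey line at 0. The pair is above the blood, liver and epithelial lists and below the proliferative smooth muscle list, mostly Mir26a-2, in all 4 libraries, and the neural list has the widest range, from -2.39 to 4.86.

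The genes whose pattern over the libraries was most like each member were sought among the 169 other miRNA genes with a mean of at least 10 TPM. Likeness was the SD of the log2 ratio to the member over the 4 libraries, in which 0 means exact proportion. Closest to Mir143 was Mir218-2, an intronic miRNA of Slit3, at an SD of 0.17, with 11.4, 26.7, 15.9 and 4.55 TPM in libraries 1 to 4. It was followed by Mir130b at 0.17, Mir26a-2 at 0.18, Mir27a at 0.22 and Mir330 at 0.23. Mir130b was at 83.5, 146, 88.7 and 34.8 TPM. Mir218-1, the Slit2 copy at a mean of 608 TPM, was less alike. Its SD against Mir143 was 0.77, above the median of 0.58 over the 169 genes.

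Closest to Mir145a was Mir191, a broadly expressed miRNA, at an SD of 0.06, with 221, 269, 223 and 56.7 TPM in libraries 1 to 4. After it came Mir540 at 0.11, Mir181a-2 at 0.11, Mir28a at 0.14 and Mir455 at 0.15. Mir145a itself was 28th of 169 in likeness to Mir143, and Mir143 was 29th of 169 in likeness to Mir145a, at an SD of 0.37. The median SD over all 169 was 0.58 for Mir143 and 0.62 for Mir145a. The linked genes thus kept a steadier ratio than the typical gene did, but many unlinked genes followed each member more closely. These likenesses are descriptions over 4 points that share depth and scale.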

How the data were processed

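Small RNA from sorted cells was sequenced, per the labels' protocols, from libraries made with a small RNA kit. The authors deposited TPM values in a table of Entrez genes by libraries. The build, mm10 (GRCm38), and the use of limma are per the submitters' processing notes. The aligner, the counter and the annotation were not given in the sources used here. Rows were joined by gene ID to RefSeq GRCm38.p6 (2541 of 2976 matched), with strand from GENCODE vM21. Within a library, 100% of nonzero miRNA TPM values, multiplied by hairpin length, were whole multiples (tolerance 0.01) of the smallest such product, which was taken as 1 read. Dividing by hairpin length favours short hairpins, and the counting of reads that fit several genes is unknown.

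Tests were an intercept-only limma fit and an exact sign-flip permutation test. The limma fit was to log2(TPM + 1) of a member minus each gene with a mean of at least 1 TPM, Benjamini-Hochberg adjusted over 272 genes. That fit was also run on simulated data, with noise drawn separately for each gene and a shared deviation for the member. The simulation therefore does not check other dependence between genes measured in the same libraries. Every log2 value depends on the pseudocount of 1 TPM. Named genes are the members, the Carmn host, the 3 nearest in level on each side, the 5 most alike, the 4 highest of each list and the nearest linked pairs. The genes called above Mir143, and those at the ends of ranges, were named after their values were seen. The members and lists were chosen with earlier results of these data known. Sequences of Mir143, Mir145a and Mir145b are not reported here. Alternatives changed the pseudocount, the filter, the scale, the length division and the libraries used. Tools were limma 3.58.1 under R 4.3.3, with scipy 1.17.1, numpy 2.4.6, matplotlib 3.10.9 and pandas 2.3.3 under Python 3.11.15.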

Additional observations from a re-analysis of the deposited data

Results flagged for a closer look

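The log2 ratio of the summed Mir143 and Mir145a to the proliferative smooth muscle list was -1.31, -1.30, -1.63 and -1.28 in libraries 1 to 4, and Mir26a-2 makes up most of that list's sum. Library 3 lay apart below the other libraries, by a gap of 0.916 of the whole range, above Dixon's 95% critical value for 4 values. Of 13 such sets of values examined, 1 was flagged, and chance flags about 1 set in 20.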

How the results depend on the processing

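Pairing of libraries between groups was not possible because the libraries form 1 group, and genes were compared within each library. Of 88 results recomputed under 759 alternatives, 706 alternatives kept the main result by the rule for its kind. For ratios the rule was the direction, and for differences from named genes the direction and the side of the threshold. For levels, counts of genes and the share of linked pairs it was staying close to the main value. Of the rest, 24 reversed direction, 19 were weaker and 9 stronger (a call or a count), and 1 moved away from the main value. Leaving out each library in turn, Mir143 averaged 430 to 725 TPM, Mir145a 22.7 to 32.5 TPM, and Mir143 over Mir145a 4.28 to 4.55 log2 units. That ratio was 4.49 with a pseudocount of 0.1, 3.93 with 10 and 4.34 from reads not divided by hairpin length. With no filter on low values, Mir143 was higher than 409 of 439 genes and Mir145a than 285 of 439, and with a mean of at least 10 TPM these were 140 and 18 of 169, since fewer low genes were tested. The share of linked pairs more unequal than Mir143 over Mir145a was then 4.65%, since the filter drops pairs with a low lower gene, against 14.8% to 18.5% when leaving out libraries.

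Directions that turned belonged to differences not called, and the cause was not tested. Over libraries left out, the pair's ratio to the neural list ran from -0.22 to 2.20. Mir143 minus Mir100 ran from -0.44 to 0.29, minus Mir125b-1 from -0.12 to 0.79, minus Mir199a-1 from -0.49 to 0.12 and minus Mir218-1 from -0.33 to 0.20. It ran from -0.21 to 0.21 for Mir370, from -0.33 to 0.33 for Mir543 and from -0.135 to 2.28 for Mir9-3. Mir145a minus Mir200b ran from -0.42 to 0.12, minus Mir205 from -0.69 to 0.32, minus Mir219a-2 from -0.0935 to 2.25 and minus Mir222 from -0.24 to 0.23. It ran from -0.19 to 0.26 for Mir421, from -0.12 to 0.17 for Mir493 and from -0.0404 to 0.21 for Mir532. From reads not divided by length, Mir143 minus Mir125b-1 was -0.0517, Mir145a minus Mir421 was -0.0042 and minus Mir532 -0.39. With a pseudocount of 10, Mir145a minus Mir493 was 0.0281. The 54 reads of Mir145a in library 4 limit its precision there.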
